A study of Mus musculus with 18 samples.

Results

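Ribosome footprints of mouse medulloblastoma cells were compared between Rapalink-1 and rapamycin, a pair of inhibitors of the growth kinase mTOR. The members are the 6 footprint libraries of these treatments, 3 each, chosen by their sample labels out of 18 libraries in the series. All cells belonged to the GTML line, in which a human MYCN transgene is overexpressed, and every group, DMSO included, carries it. In the mouse model behind this line, the Glt1 promoter drives a tetracycline-controlled activator that switches on MYCN in the hindbrain, so the line stands for MYCN-driven tumours. The cells grew in neurobasal medium with B27, EGF and bFGF and were treated for 3 h with 50 nM Rapalink-1, with 5 nM rapamycin, or with DMSO as the vehicle. The doses differ, so each value below compares these treatments, not the molecules at a matched dose. The labels do not say whether the replicates came from separate cultures, so p-values measure the spread between libraries, which may be technical.

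mTOR acts in a complex, mTORC1, that phosphorylates eIF4E-binding proteins (4E-BPs) and S6 kinases. Unphosphorylated 4E-BPs hold the cap-binding protein eIF4E away from its scaffold eIF4G, and mRNAs that begin with a 5′ terminal oligopyrimidine tract (TOP), which encode ribosomal proteins and many translation factors, are known to respond most. Rapamycin binds beside the kinase domain together with the protein FKBP12 and blocks the S6 kinases more fully than the 4E-BPs. Rapalink-1 carries a rapamycin-like part joined by a linker to an inhibitor of the ATP site. Footprints count ribosomes on an mRNA: a lower value can come from less mRNA or from fewer ribosomes per mRNA, and only footprints are described here.

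After transcript rows were joined into genes, the Rapalink-1 libraries held 11023142, 7794216 and 8193342 reads, the rapamycin libraries 12820072, 11608873 and 13069883, and the DMSO libraries 7692625 to 14150068. Levels are counts scaled to library size (CPM) scaled by trimmed mean of M-values (TMM), differences are log2 fold changes of Rapalink-1 over rapamycin ± standard error from a fit with 3 replicates per group, and a call needs an adjusted p under 0.05. No spike-in is recorded, so a fold change is relative to the other genes of a library. In the first principal component, with 79.62% of the variance, the Rapalink-1 libraries stood apart (28.8 to 29.9) from rapamycin (-13.9 to -11.6) and DMSO (-17.9 to -15.9). The names of the DMSO and Rapalink-1 libraries carry a tag that the rapamycin names lack, and no source used here gives its meaning. The tag and the treatment cannot be told apart between Rapalink-1 and rapamycin. On the first component the DMSO libraries, which share the tag with Rapalink-1, lay closer to rapamycin. On the second, with 10.06% of the variance, the treatments all lay apart from each other. Rapamycin lay at 7.5 to 11.6, Rapalink-1 at -2.2 to 0.098 and DMSO at -9.5 to -7.0. The part of the tag in either component was not tested.

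The labelled cell type was checked against marker genes. Of 12 neural progenitor and glial markers 7 were tested, Nes, Pax6, Msi1, Slc1a3 and Vim among them, and of 12 neuron markers 6, with Neurod1 at 339, 383 and 365 CPM with Rapalink-1 and 288, 313 and 292 with rapamycin. Sox2 and Gfap have no named row in the tables used here. Of 11 oligodendrocyte, 14 microglial and blood and 14 vascular markers, 1, 3 and 1 had a named row. The microglial and blood markers summed to 0.00278 to 0.00333% of footprint reads with Rapalink-1 and 0.00586 to 0.00739% with rapamycin, most of it Itgam, an integrin chain, at 21.5, 23 and 22 CPM with Rapalink-1 and 75.1, 60.6 and 63.8 with rapamycin, and its part in the results was not tested. Acta2 of smooth muscle stood at 253, 252 and 238 CPM with Rapalink-1 and 246, 245 and 272 with rapamycin and overlapped between the treatments.

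Starts of some leading genes are printed first, because pyrimidine tracts at the mRNA start define the TOP class. The sequences are RefSeq windows of build GRCm38.p6 around annotated start sites, 30 bases each, 5′ to 3′ on the gene's strand. Capitals mark a run of at least 7 C or T letters that begins with C and starts between 20 bases before and 43 bases after the annotated start. A gene can have several windows, and the first that holds such a run is printed. The first 5 genes had fewer footprints with Rapalink-1 than with rapamycin and the last 2 had more.
Eef2: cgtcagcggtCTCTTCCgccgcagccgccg
Rpl27a: acttcgtgagCTCCTCCCTTTTCCCTTTCT
Rps18: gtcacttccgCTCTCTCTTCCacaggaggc
Eif3f: ctgttctaggCTCTCTCTCTTTCTCggcaa
Odc1: ggagtccccgCCCCTCCCCCgcgcctcccg
Txnip: ccgcttgacaCTCTCCTCCTCTggtctcgg
Dync1h1: agcgggcgccggtggctgcagccagcgggc
The stretches lie at chr10:81176636-81176665 for Eef2, chr7:109519181-109519210 for Rpl27a and chr7:108934401-108934430 for Eif3f, all on the plus strand, and at chr17:33955648-33955677 on the minus strand for Rps18. Those of Odc1 at chr12:17544851-17544880, Txnip at chr3:96557951-96557980 and Dync1h1 at chr12:110601385-110601414 are on the plus strand. The Odc1 run starts at -12 from the annotated start of its window, and its 10 letters lie upstream of that start. No such run was found in the windows of Dync1h1, Tpt1 and Vim, although Tpt1 and Vim are classed as TOP mRNAs, while Txnip, which had more footprints with Rapalink-1, holds a run of 12 letters.

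Windows were at hand for 7652 of the 11281 genes tested, and 30.8% of them held such a run. The run stood in 31 of 36 large subunit and 17 of 25 small subunit ribosomal protein genes with a window (86.1 and 68.0%), in 4 of 6 elongation factor genes and in 8 of 13 other TOP genes. Among genes called lower by a log2 fold change of at least 1 it stood in 131 of 280 (46.8%), or in 81 of 213 (38%) once those lists were left out. It was found in 34.5% of 87 genes called higher by at least 1 and in 30.5% of 3213 genes not called. With a minimum of 5 letters the shares were 94.4 and 96.0% for the large and small subunit genes against 64.6% of all windows. At that minimum the share was 73.2% of genes lower by at least 1, or 66.7% with those lists left out. It was 70.1% of genes higher by at least 1 and 63.4% of genes not called, so lower and higher genes differed little. The search letters and window were chosen after the values were known, only the gene's own strand was searched, and a match only describes letters near an annotated start.

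Footprints differed at the majority of genes, in both directions about equally. Of 11281 genes, 5989 were called (53.1%), 2870 higher (25.4%) and 3119 lower (27.6%) with Rapalink-1. Differences of at least 1 on the log2 scale were fewer, 208 higher (1.84%) and 451 lower (4.0%). In 59.5% of genes the 3 values of one treatment did not overlap the 3 of the other. Against the shared DMSO libraries 53.7% of genes were called with Rapalink-1 (25.7% higher, 28.0% lower) and 18.1% with rapamycin (8.75% higher, 9.4% lower). With library totals in place of TMM the split was 4979 higher and 1830 lower, since that scaling moved the median of all genes from 0.01 to 0.23. List counts and medians under library totals, given below, are to be read beside that split and that median. Of 5292 genes not called, 2926 had a 95% interval within 0.5 either way, and for 2366 the interval reached beyond it.

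**Figure D1:**
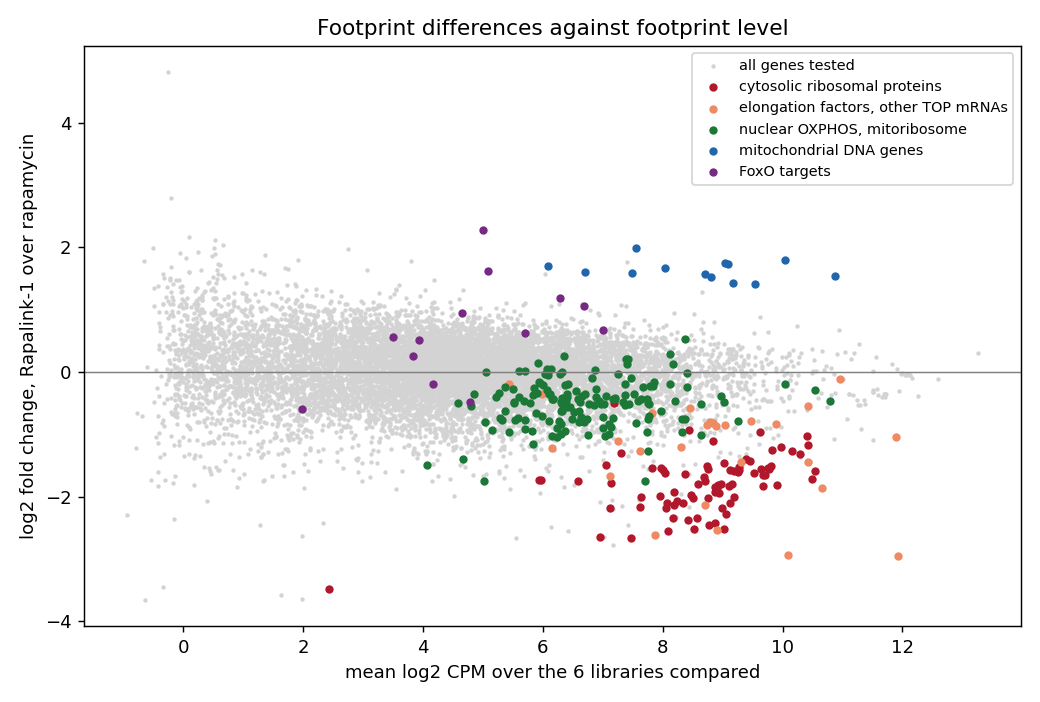
Log2 fold change of footprints (Rapalink-1 over rapamycin, y axis) against the mean log2 CPM over the 6 libraries (x axis), 1 point per gene tested, with 5 gene groups in colour. The ribosomal protein genes lie between -3.48 and -0.49 and the 13 mitochondrial DNA genes between 1.41 and 2.00.

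The cytosolic ribosome carried the clearest difference. All 81 ribosomal protein genes tested were called lower with Rapalink-1, against 27.6% of all genes, with a median log2 fold change of -1.75 against 0.01 over all genes. Against DMSO, the median was -2.14 with Rapalink-1 and -0.40 with rapamycin, and 81 and 71 of the 81 genes were called lower, against 28.0 and 9.4% of all genes. Both treatments thus lay below the vehicle, rapamycin by less. Together they took 2.617, 2.630 and 2.636% of footprint reads with Rapalink-1 and 7.126, 7.285 and 7.147% with rapamycin, beside 8.915, 8.9 and 9.402% with DMSO. The treatments did not overlap (exact permutation test, two-sided, p = 0.1, the smallest that 3 against 3 libraries allow).

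**Figure D2:**
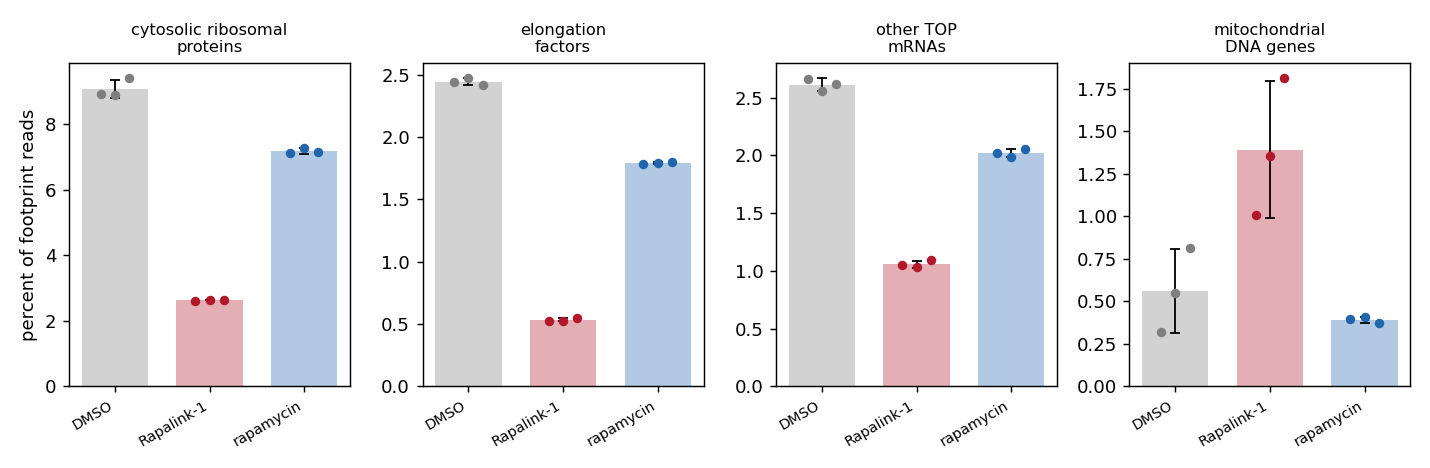
Percent of all footprint reads of a library (y axis) in 4 gene lists, by treatment (points, 3 libraries; bars, mean; error bars, SD). In the first 3 lists the Rapalink-1 libraries lie far below both other groups, with 2.617 to 2.636% in ribosomal protein genes, and in mitochondrial DNA genes they lie above, at 1.01 to 1.81%.

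Among the 33 small subunit genes the median was -1.82. Rps18, a protein of the small subunit head, had 157, 158 and 147 CPM with Rapalink-1 and 915, 899 and 837 with rapamycin. These values do not overlap, and the log2 fold change was -2.52 ± 0.056 (adjusted p = 9e-32). Rps20 had 112, 118 and 107 CPM with Rapalink-1 and 638, 710.1 and 628 with rapamycin (-2.55 ± 0.058). Rps6, the protein that S6 kinases phosphorylate and for which they are named, stood at -1.57. Rack1, a signalling scaffold on the small subunit that is listed here with the other TOP mRNAs, stood at -1.44. Rps27 stood at -2.65 ± 0.058, but its counts run nearly level with those of Rps27rt, a near copy, and the division of reads between them is uncertain. The lowest value, -3.48 ± 0.21 for Rps2, rests on few reads, at 2.18, 1.16 and 1.19 CPM with Rapalink-1 and 19.1, 18.6 and 15.6 with rapamycin. The least affected was Rps27l, an Rps27 paralogue known as a p53 target, at -0.49 ± 0.058.

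Among the 48 large subunit genes the median was -1.74 and the values ran from -2.66 to -0.93. Rpl27a had 73.6, 69.3 and 69.2 CPM with Rapalink-1 and 463, 449.7 and 427 with rapamycin, a log2 fold change of -2.66 ± 0.058 (adjusted p = 5.6e-32). Rpl36 had 148, 159 and 146 CPM with Rapalink-1 and 789.8, 829.5 and 737 with rapamycin (-2.38 ± 0.058), Rpl13 had 239, 259 and 223 CPM with Rapalink-1 and 1182, 1240.3 and 1094 with rapamycin (-2.29 ± 0.057). Both are components of the 60S body, and no Rapalink-1 library reached the level of any rapamycin library. The genes at the other end were Rpl36al at -0.93, Rpl15 at -0.96 and Rpl5, which binds 5S rRNA and the p53 ligase MDM2, at -1.03. Among the 15 lowest genes, several carry names of ribosomal protein pseudogenes or predicted genes (Rpl36-ps4 at -2.67, Gm10260 at -2.56 and Gm8973 at -2.55), whose reads may be shared with the parent genes.

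Elongation factor genes were lower too. Of 8 genes 7 were called lower, against 27.6% of all genes, with a median of -1.16. Under library totals 5 of the 8 were called lower, against 1830 of all 11281 genes. Eef1a1, which delivers aminoacyl-tRNA to the ribosome, had 1401, 1356 and 1451 CPM with Rapalink-1 and 10813, 10789 and 10906 with rapamycin and 16633, 16578 and 16459 with DMSO. Its log2 fold change of -2.95 ± 0.045 (adjusted p = 5.7e-37) was the lowest of the called, non-overlapping genes whose mean log2 CPM was 4 or more. Eef2, which moves the ribosome along mRNA, had 392, 396 and 394 CPM with Rapalink-1 and 3062, 3030.2 and 2953 with rapamycin, a log2 fold change of -2.93 ± 0.049 (adjusted p = 1.2e-35). The nucleotide exchange factor subunits Eef1b2, Eef1g and Eef1d stood at -2.13, -1.45 and -0.87. Eif5a, which helps ribosomes past difficult peptide bonds, was at -0.11 ± 0.052 and not called. Elongation factor genes took 0.524 to 0.548% of footprint reads with Rapalink-1 and 1.78 to 1.80% with rapamycin (exact permutation p = 0.1).

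All 19 other TOP mRNAs tested were called lower, against 27.6% of all genes, with a median of -1.05. Pabpc1, the cytoplasmic poly(A)-binding protein, had 92.8, 95.9 and 96.2 CPM with Rapalink-1 and 589, 569.6 and 589 with rapamycin (-2.62 ± 0.055). Tpt1, a small growth-linked protein, had 203, 199.8 and 196 CPM with Rapalink-1 and 1114, 1216 and 1155 with rapamycin (-2.54 ± 0.052). Both genes showed a narrow spread within each treatment and a wide gap between them. Hspa8, the constitutive Hsp70 chaperone, had 863, 821 and 849 CPM with Rapalink-1 and 3103, 2993 and 3123 with rapamycin (-1.86 ± 0.046), with 6278, 6013 and 5999.5 in DMSO, so rapamycin also lay below the vehicle. Among subunits of initiation factor eIF3 in this list, Eif3f stood at -1.67, Eif3h at -1.21, Eif3k at -1.10, Eif3e at -0.84 and Eif3l at -0.81. The smallest differences were those of Hnrnpa1 at -0.55 and of Eif2s3x, a subunit of the factor that brings the initiator tRNA, at -0.59.

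**Figure D3:**
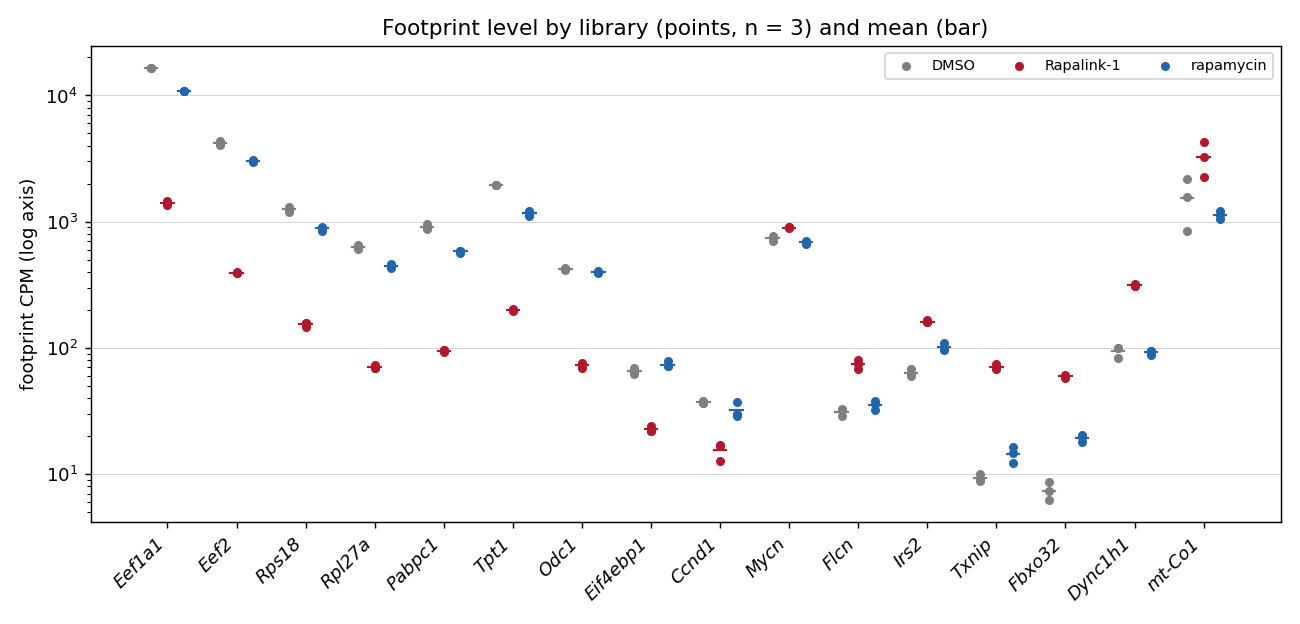
Footprint CPM (y axis, log scale) of 16 genes in the 3 libraries of each treatment (points) with the mean (bar). Points of Eef1a1, Eef2, Rps18, Rpl27a, Pabpc1, Tpt1 and Odc1 with Rapalink-1 lie below both other treatments, and those of Flcn, Irs2, Txnip, Fbxo32 and Dync1h1 above.

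Initiation factors outside the TOP list differed less. Of 22 genes 16 were lower and 4 higher, against 27.6 and 25.4% of all genes. The median was -0.26, or -0.04 with 9 lower and 5 higher under library totals. The eIF3 subunits Eif3i, Eif3g and Eif3m stood at -1.01, -0.84 and -0.67, while Eif3a, the largest subunit, was at 0.16. Of the guanine exchange factor eIF2B, Eif2b5, the catalytic subunit, was at -0.57. Eif5, which triggers GTP hydrolysis at the start codon, was the highest at 0.48.

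The cap-binding group held differences in both directions. Of 18 genes 11 were lower and 4 higher, against 27.6 and 25.4% of all genes. The median was -0.20, or 0.02 with 7 lower and 5 higher under library totals. The lowest in the list were a pair of eIF4E repressors. Eif4ebp1 had 23.9, 21.9 and 22 CPM with Rapalink-1 and 78.3, 71.7 and 71.6 with rapamycin, with 62.2, 64.5 and 69.2 in DMSO. Its log2 fold change was -1.70 ± 0.082 (adjusted p = 1.3e-20). Eif4ebp2 had 6.54, 7.28 and 7.70 CPM with Rapalink-1 and 20.6, 21.4 and 22.2 with rapamycin (-1.59 ± 0.13), and Mknk2, a kinase of eIF4E, stood at -1.23. Rapamycin left these 3 genes within 0.18 of DMSO on the log2 scale. Eif4h, a cofactor of eIF4A, was lower at -0.61. Eif4e itself was near level, with 271, 263 and 274 CPM with Rapalink-1 and 289, 306 and 328 with rapamycin, and its call at -0.19 turned to 0.03 under library totals. The eIF4G scaffolds were higher, Eif4g1 at 0.27, Eif4g2 at 0.24 and Eif4g3 at 0.59. Pdcd4, an inhibitor of the helicase eIF4A that S6 kinase marks for degradation, was also higher, with 184, 168 and 177 CPM with Rapalink-1 and 121, 132 and 136 with rapamycin and 70.0, 73 and 62.1 in DMSO (0.45 ± 0.063). Larp1, a protein that binds TOP mRNAs, was at -0.17 ± 0.056, and this call was lost without Rapalink-1 replicate 3 (-0.12, adjusted p = 0.11) or rapamycin replicate 3 (-0.14, adjusted p = 0.057) and turned to 0.06 under library totals.

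Genes of the mTOR pathway itself had no common direction, with 10 of 32 higher and 6 lower, against 25.4 and 27.6% of all genes. Their median was 0.01, or 0.23 with 15 higher and 3 lower under library totals. Flcn and Fnip1, partners in a complex that acts on Rag GTPases at the lysosome, were highest. Flcn had 80.1, 74.5 and 67.7 CPM with Rapalink-1 and 35.8, 37.7 and 32 with rapamycin (1.08 ± 0.082), and Fnip1 had 70.6, 79.8 and 78.3 CPM with Rapalink-1 and 34.2, 35.9 and 36.3 with rapamycin (1.1 ± 0.078). Rragb, a Rag GTPase, stood at 0.77 and Rptor, the substrate-binding subunit of mTORC1, at 0.55. Lamtor4, Lamtor1 and Lamtor2 of the Ragulator complex, which anchors the Rags, were lower at -0.93, -0.49 and -0.40. Tsc2, a brake on the pathway, was at -0.44.

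Mtor and the S6 kinase gene Rps6kb1 were close to level. Mtor had 46.2, 43.3 and 50.1 CPM with Rapalink-1 and 53.9, 53.7 and 56.8 with rapamycin (-0.24 ± 0.081). Its call was lost without Rapalink-1 replicate 2 (-0.19, adjusted p = 0.077) or rapamycin replicate 3 (-0.21, adjusted p = 0.056), and at -0.01 under library totals. Rps6kb1 was at 0.22 ± 0.083 (adjusted p = 0.025), and did not pass without Rapalink-1 replicate 2 (0.22, adjusted p = 0.052), Rapalink-1 replicate 3 (0.20, adjusted p = 0.083) or rapamycin replicate 1 (0.13, adjusted p = 0.22).

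Upstream of mTOR, receptors and adaptors of insulin signalling were higher with Rapalink-1. Of 17 genes 8 were higher, against 25.4% of all genes, and 1 was lower. The median was 0.22, or 0.44 with 11 higher and 0 lower under library totals. Irs2, an adaptor of the insulin receptor, had 166, 159.5 and 159.6 CPM with Rapalink-1 and 110.2, 96 and 97.8 with rapamycin and 59.6, 67.7 and 61.9 with DMSO (0.68 ± 0.064). Irs1 had 39.5, 43.2 and 41.1 CPM with Rapalink-1 and 26.4, 23.1 and 25.9 with rapamycin (0.71 ± 0.095). The receptor genes Insr and Igf1r stood at 0.56 and 0.51, and Pik3r1, the regulatory subunit of PI3-kinase, at 0.65. Of the AKT kinases, Akt2 stood at 0.22 and was called, and Akt1 stood at -0.18 and was not called.

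mRNAs described as sensitive to eIF4E included both directions, with 7 of 13 lower and 3 higher, against 27.6 and 25.4% of all genes. Their median was -0.26, or -0.04 with 6 lower and 5 higher under library totals. Odc1, ornithine decarboxylase at the head of polyamine synthesis, had 74.6, 69.2 and 75.5 CPM with Rapalink-1 and 396, 403 and 399 with rapamycin, with 426, 419 and 416 in DMSO. The rapamycin and DMSO values lie close together, and the log2 fold change between the drugs was -2.45 ± 0.056 (adjusted p = 3.1e-31). The cyclin Ccnd1 had 16.9, 16.9 and 12.8 CPM with Rapalink-1 and 37.3, 29.1 and 30.2 with rapamycin (-1.05 ± 0.11), and Ccnd3 had 22.1, 19.9 and 19.3 CPM with Rapalink-1 and 45.4, 44.1 and 38.4 with rapamycin (-1.05 ± 0.093). Ybx1, a cold-shock domain mRNA-binding protein, stood at -1.22, Mta1 of the NuRD complex at -1.10 and the survival factor Mcl1 at -0.71. In contrast, Bcl2l1, which encodes BCL-XL, was higher at 0.56, and Hif1a at 0.45.

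Further polyamine genes were lower too: Amd1 at -1.19, with counts close to those of its copy Amd2, Srm, the spermidine synthase, at -0.82 and Sms, the spermine synthase, at -0.54. In all 6 of 12 genes of that list were lower and 1, Azin1, an inhibitor of the antizymes, was higher at 0.23. The shares over all genes were 27.6% lower and 25.4% higher. The list median was -0.16, or 0.06 with 4 lower and 2 higher under library totals.

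The row of mouse Mycn, which may hold reads of the human transgene, had 886, 904 and 903 CPM with Rapalink-1 and 664, 707 and 683 with rapamycin, with 706, 772 and 747 in DMSO. Its footprints were higher with Rapalink-1 by 0.39 ± 0.050 (adjusted p = 1.6e-08), with no overlap. Mga, a MAX partner that competes with MYC proteins, was higher at 0.91 ± 0.068. Of 8 MYC network genes tested 2 were higher and 2 lower, close to the 25.4 and 27.6% over all genes, with a median of -0.04. Under library totals 4 were higher and 0 lower, with a median of 0.18. Of the pair called lower with TMM, Mxd3 stood at -0.39 and Mlx at -0.28. The Mxd3 call was lost without Rapalink-1 replicate 1 (-0.34, adjusted p = 0.083) or rapamycin replicate 1 (-0.35, adjusted p = 0.072), and the Mlx call without Rapalink-1 replicate 3 (-0.21, adjusted p = 0.062). Ribosome biogenesis genes, classical MYC targets, were split, with 15 of 36 higher and 13 lower, against 25.4 and 27.6% of all genes. Their median was 0.03, or 0.25 with 20 higher and 7 lower under library totals. Polr1a, the largest subunit of RNA polymerase I, was at 0.63 and Utp20 of the small subunit processome at 0.56, while Bysl was at -0.96, Nhp2 of the H/ACA particles at -0.80 and the helicase Ddx21 at -0.57.

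**Figure D4:**
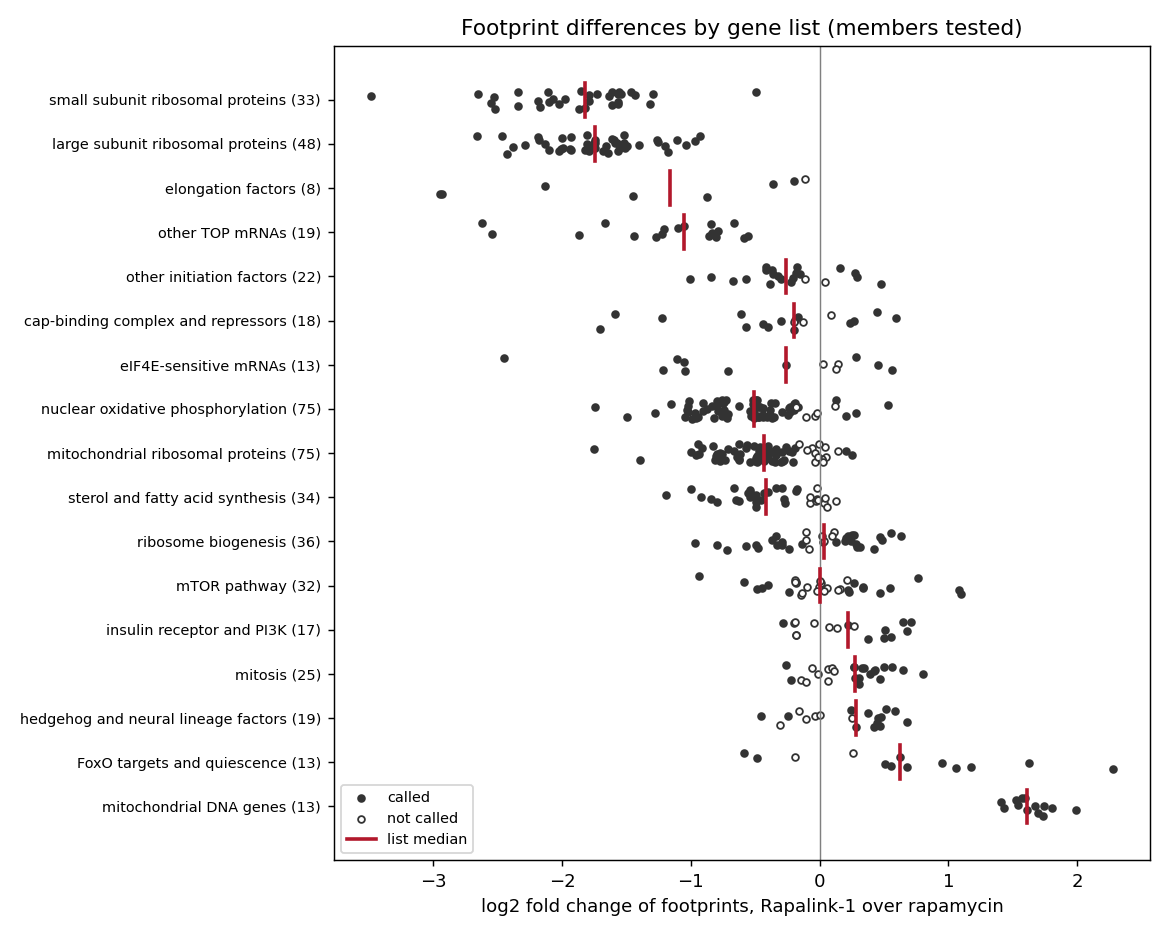
Log2 fold change of footprints (Rapalink-1 over rapamycin, x axis) for each tested member of 17 gene lists (filled points called, open points not called) with the list median (red line). Medians run from -1.82 for small subunit ribosomal proteins to 1.61 for mitochondrial DNA genes.

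Nuclear and mitochondrial genes of respiration stood on opposite sides. Of 75 nuclear genes of oxidative phosphorylation, 66 were lower and 4 higher, against 27.6 and 25.4% of all genes. Their median was -0.51, or -0.29 with 54 lower and 7 higher under library totals. Against DMSO the median was -0.41 with Rapalink-1 and 0.09 with rapamycin. The lowest of the list was Atp5g2, of the rotor ring of ATP synthase, at -1.74. Of the same enzyme, Atp5g1, also of the ring, had 153, 133 and 133 CPM with Rapalink-1 and 329.8, 338 and 347 with rapamycin (-1.27 ± 0.058), and Atp5c1, the central stalk, had 282, 270.2 and 288 CPM with Rapalink-1 and 568, 559.9 and 574 with rapamycin (-1.02 ± 0.051). Complex I subunits included Ndufa3 at -1.50 and Ndufb5 at -1.03. The 4 genes called higher were Ndufs1 at 0.53, Atp5j at 0.28, Cox7b at 0.20 and Ndufa4 at 0.13.

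Mitochondrial ribosomal proteins, also encoded in the nucleus, were lower for 60 of 75 genes and higher for 2, against 27.6 and 25.4% of all genes. Their median was -0.43, or -0.21 with 42 lower and 13 higher under library totals. Mrps24 had 16.8, 19.3 and 17 CPM with Rapalink-1 and 56.2, 62.9 and 59.2 with rapamycin (-1.75 ± 0.089) and Mrpl43 15.1, 15.1 and 16.7 CPM with Rapalink-1 and 42.8, 41.2 and 39.3 with rapamycin (-1.40 ± 0.098). The 2 higher genes were Mrps31 at 0.25 and Mrpl3 at 0.21.

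All 13 protein genes of mitochondrial DNA, which mitochondrial ribosomes translate, were called higher, against 25.4% of all genes, with a median of 1.61. Relative to DMSO the median was 1.02 with Rapalink-1, where 3 of 13 were called higher, against 25.7% of all genes. With rapamycin it was -0.64, and 0 of 13 were called. These medians lie on opposite sides of the vehicle, but the read shares with rapamycin, given next, fall within the range of DMSO. These 13 genes took 1.01, 1.36 and 1.81% of footprint reads with Rapalink-1 and 0.396, 0.405 and 0.373% with rapamycin, beside 0.321, 0.548 and 0.814% with DMSO (exact permutation p = 0.1 between the drugs). The share thus varied widely within the Rapalink-1 and the DMSO group, whose library names share a tag, and little within rapamycin, and the part of this spread in the result was not tested. mt-Co1, the catalytic subunit of cytochrome c oxidase, had 2272, 3249 and 4311 CPM with Rapalink-1 and 1128, 1208 and 1044 with rapamycin (1.54 ± 0.39, adjusted p = 0.015). mt-Atp8 of ATP synthase had 329, 359 and 442 CPM with Rapalink-1 and 101, 85.1 and 97 with rapamycin (2.00 ± 0.27). Both were separated between the treatments, but standard errors in this list were several times those of ribosomal protein genes. The call of mt-Nd4l (1.61) was lost without Rapalink-1 replicate 2 or 3 (adjusted p = 0.055 and 0.064) or without any rapamycin replicate (0.054 to 0.067). That of mt-Nd2 (1.59) was lost without Rapalink-1 replicate 3 (adjusted p = 0.055) or rapamycin replicate 2 or 3 (0.058 each), and that of mt-Co1 without rapamycin replicate 3 (0.052).

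FoxO targets and genes tied to quiescence were mostly higher. FoxO factors are transcription factors that AKT keeps out of the nucleus. Of 13 genes 9 were higher and 2 lower, against 25.4 and 27.6% of all genes, with a median of 0.62, or 0.85 with 10 higher and 1 lower under library totals. Txnip, an inhibitor of thioredoxin and of glucose uptake, had 68.7, 75 and 68 CPM with Rapalink-1 and 16.4, 14.8 and 12.3 with rapamycin and 9.21, 8.83 and 10.1 with DMSO. Its log2 fold change of 2.28 ± 0.098 (adjusted p = 3e-22) was the highest among genes with a mean log2 CPM of at least 4 and no overlap. Fbxo32, a ubiquitin ligase subunit of muscle atrophy, had 61.3, 57.5 and 60.3 CPM with Rapalink-1 and 20.5, 17.9 and 19.6 with rapamycin and 6.19, 7.29 and 8.61 with DMSO (1.63 ± 0.095). Hbp1, a repressor of cell cycle entry, had 124, 113 and 117 CPM with Rapalink-1 and 50.3, 52.2 and 53.6 with rapamycin and 15.6, 12.6 and 14.1 with DMSO (1.18 ± 0.070). Klhl24, an adaptor of a ubiquitin ligase, stood at 1.06 ± 0.066. For Fbxo32, Hbp1 and Klhl24, rapamycin lay between DMSO and Rapalink-1, with log2 fold changes over DMSO of 1.41, 1.86 and 2.29 for rapamycin and 3.04, 3.04 and 3.35 for Rapalink-1. Foxo3 and Foxo4 were at 0.62 and 0.55, and the lower pair was Gadd45a at -0.59 and Bnip3 at -0.48.

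**Figure D5:**
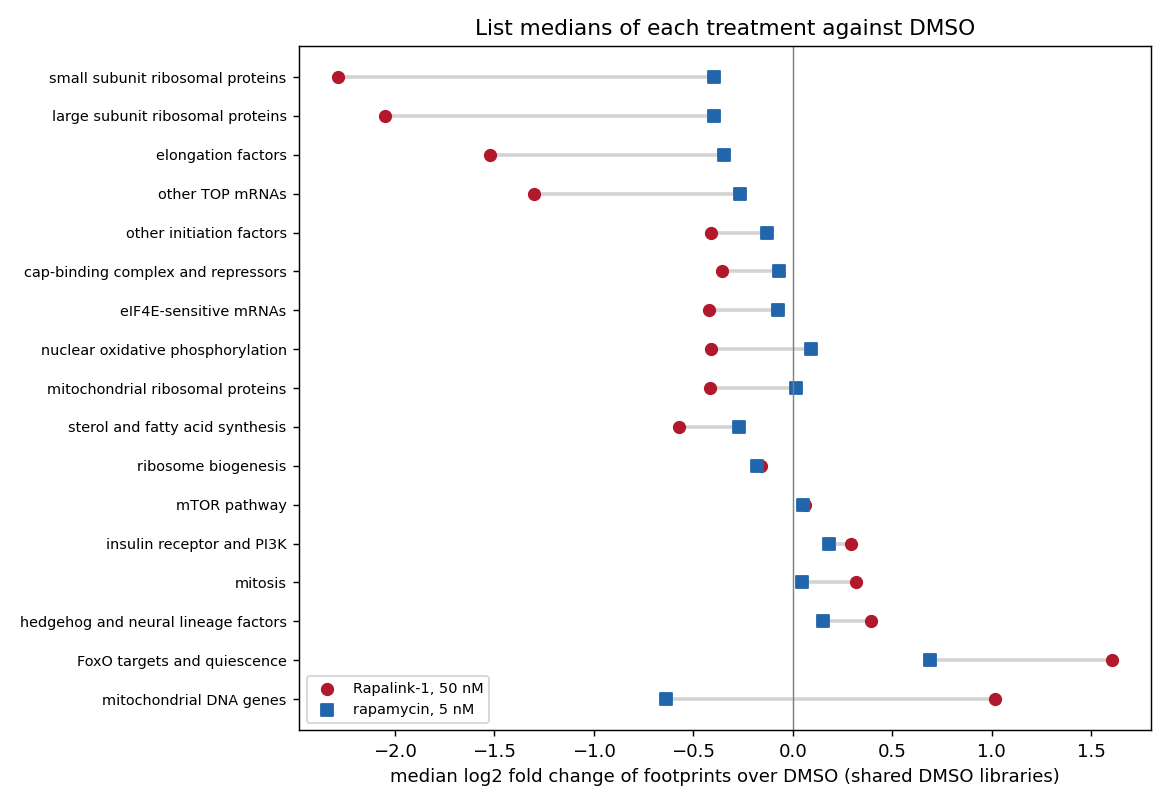
Median log2 fold change of footprints over DMSO (x axis) for 17 gene lists with Rapalink-1 (red circles) and rapamycin (blue squares), which share the DMSO libraries. For small subunit ribosomal proteins the medians are -2.29 and -0.40, and for FoxO targets 1.60 and 0.69.

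Of 34 sterol and fatty acid genes 24 were lower, against 27.6% of all genes, and none of these 34 higher, with a median of -0.42, or -0.19 with 17 lower and 10 higher under library totals. Msmo1, of late cholesterol synthesis, had 94.3, 97.6 and 92.4 CPM with Rapalink-1 and 196, 182 and 189 with rapamycin (-1.0 ± 0.064). Scap, which escorts the factor SREBP, stood at -0.92. Hmgcs1 at -0.07, Sqle at -0.07, Lss at -0.02 and Cyp51 at -0.02 were not called. Of 25 ATF4 targets and amino acid genes 10 were lower and 3 higher, against 27.6 and 25.4% of all genes, with a median of -0.15. Under library totals 6 were lower and 11 higher, with a median of 0.07. That scaling called 1830 of all 11281 genes lower and 4979 higher, with a median of 0.23 over all genes. Atf4 had 18, 19.8 and 16 CPM with Rapalink-1 and 25.3, 24 and 22.8 with rapamycin (-0.42 ± 0.11), with 37.4, 38.4 and 42.5 in DMSO. Mthfd2 of mitochondrial folate metabolism had 81.6, 81.6 and 85.7 CPM with Rapalink-1 and 193, 205 and 209 with rapamycin (-1.29 ± 0.060), the amino acid carrier Slc7a5 was at -0.99 and Phgdh of serine synthesis at -0.77, while Asns, asparagine synthetase, was at 0.05 and not called.

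Folding and cytoskeletal genes were lower in most cases, beside 27.6% lower and 25.4% higher over all genes. Of 13 subunits of the CCT chaperonin and prefoldin 11 were lower and 1 higher, with a median of -0.47, or -0.25 with 8 lower and 2 higher under library totals. Pfdn5 stood at -1.82 and Cct2 at -1.02. Their folding clients, the tubulins and actins, were lower for 13 of 14, with a median of -0.52, or -0.29 with 11 lower and 0 higher under library totals. Actg1 had 1893, 1856 and 1778 CPM with Rapalink-1 and 3534, 3525 and 3401 with rapamycin (-0.92 ± 0.045). Of 22 heat shock and ER chaperones 14 were lower and 1 higher, or 11 and 6 under library totals, with medians of -0.37 and -0.15. P4hb, the protein disulfide isomerase, had 309.9, 305 and 293 CPM with Rapalink-1 and 762.3, 826 and 756 with rapamycin (-1.37 ± 0.052), and Hsp90ab1 was at -1.09 while its paralogue Hsp90aa1 was at 0.01 and not called.

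Of 25 mitosis genes 15 were higher, against 25.4% of all genes, and 2 lower, with a median of 0.28, or 0.50 with 21 higher and 0 lower under library totals. The proliferation antigen Mki67 had 611, 623 and 597 CPM with Rapalink-1 and 379, 340.2 and 329 with rapamycin (0.80 ± 0.058), and the checkpoint kinase Bub1b 381, 376 and 377 CPM with Rapalink-1 and 242, 235 and 246 with rapamycin (0.65 ± 0.052). Of 32 DNA replication genes 15 were higher and 6 lower, with a median of 0.13 (26 higher and 3 lower at 0.35 under library totals), Mcm10 at 0.50 and Cdc45 at 0.50 among the higher and Rfc2 at -0.82 and Gins2 at -0.69 among the lower. Of 16 G1 genes 4 were higher and 5 lower, with a median of -0.10, or 0.12 with 7 higher and 5 lower under library totals, and the TMM counts are close to the shares over all genes. Besides the D cyclins, Ccne2 at -0.91 and Ccne1 at -0.76 were lower, while the inhibitor genes Cdkn1b and Cdkn2c were at 0.48 and 0.41.

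Of 14 immediate early and ERK feedback genes 9 were higher, against 25.4% of all genes, and none of these 14 lower, with a median of 0.36, or 0.58 with 11 higher under library totals. Junb had 40.3, 46.4 and 43.3 CPM with Rapalink-1 and 24.5, 29 and 21.2 with rapamycin (0.80 ± 0.099), and the ERK inhibitors Spred2, Dusp6 and Spry2 stood at 0.81, 0.56 and 0.57. Of 19 hedgehog and neural lineage genes 11 were higher and 2 lower, with a median of 0.29, or 0.51 with 12 higher and 1 lower under library totals. Ptch1, the hedgehog receptor, had 30.3, 29.7 and 33.3 CPM with Rapalink-1 and 20.5, 17.2 and 20.4 with rapamycin (0.68 ± 0.11), and the granule lineage factor Zic2 159, 153 and 143 CPM with Rapalink-1 and 117, 105 and 107 with rapamycin (0.47 ± 0.062).

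Of 19 genes of iron handling, the NRF2 response and glutathione, 5 were higher and 11 lower, against 25.4 and 27.6% of all genes. Under library totals 8 were higher and 7 lower, and the medians were -0.29 with TMM and -0.07 with library totals. The ferritin genes, whose mRNAs carry an iron response element near the start, were higher: Ftl1 had 242, 253 and 230.3 CPM with Rapalink-1 and 113, 128 and 106 with rapamycin (1.07 ± 0.069), and Fth1 was at 0.57. The import genes Tfrc, the transferrin receptor, and Slc11a2 were lower, at -1.16 ± 0.065 and -1.04.

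Outside the lists, Dync1h1 and Ibtk were among the 15 highest genes, and the further genes of this paragraph were picked after their values were seen. Dync1h1, the heavy chain of cytoplasmic dynein, had 309, 321 and 311 CPM with Rapalink-1 and 93.9, 94.6 and 88.4 with rapamycin, with 100.4, 99.5 and 82.9 in DMSO (1.77 ± 0.063, adjusted p = 4.8e-25). Ibtk stood at 1.58 ± 0.088, the linker histone H1f0 at 1.27 ± 0.074 and the splicing regulator Rbm5 at 1.08 ± 0.066. The zinc finger genes Zfp729a and Zfp729b, whose similar sequences may share reads, were at 1.31 and 1.48. On the lower side stood Cox7a2l, a supercomplex assembly factor, at -1.98 ± 0.11, the basement membrane genes Agrn at -1.64 ± 0.094 and Lama5 at -1.62 ± 0.082, and Ahcy, which clears S-adenosylhomocysteine, at -1.49 ± 0.052.

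Positions refer to mouse build GRCm38, and each interval spans a protein-coding gene with its exons and introns. The Eef1a1 gene spans chromosome 9 from 78478453 to 78481724. Eef2 is found on chromosome 10 from 81176631 to 81182509. Odc1 is found on chromosome 12 from 17544808 to 17551502, Dync1h1 also on chromosome 12 from 110601395 to 110666944. The gene of Rps18 spans chromosome 17 from 33951998 to 33955665 and that of Rpl27a chromosome 7 from 109519195 to 109522369. Eif4ebp1 is on chromosome 8 from 27260327 to 27275656, Txnip on chromosome 3 from 96557957 to 96561857 and Flcn on chromosome 11 from 59791408 to 59810039.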

How the data were processed

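Footprint and total RNA libraries were made by the authors with the ARTseq kit from GTML cells treated for 3 h, per the labels' protocols. The deposited table holds whole-number read counts per transcript without normalization, on build GRCm38 per the submitters' processing notes, and no source used here names the aligner or counter. Gene names came from a table of the authors' own comparison, and the log2 fold changes deposited there by the authors were not used as results. The 27382 rows of the count table (6378 at 0, 8528 repeating the counts of another row) were joined to 15307 features, keeping the row with most reads for 62 that held different counts. Of these, 9787 had a symbol and 16 were shared by genes of different symbol. Features without a symbol held 1.834 to 2.146% of footprint reads and stayed in the fit.

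Genes passed filterByExpr (minimum count 10, minimum total 15), which left 11281. The 9 footprint libraries were fitted with TMM factors and the quasi-likelihood test of edgeR 4.0.16 (limma 3.58.1, R 4.3.3; robust glmQLFit, glmQLFTest), treatment as the only term, Benjamini-Hochberg adjustment over all genes, and the contrast Rapalink-1 minus rapamycin. The biological coefficient of variation was 6.381%. The script was tested on simulated data with few changed genes, in both directions, which does not test the scaling where most genes differ. Alternatives used DESeq2 1.42.0, other scalings and filters, a replicate block and fits leaving out each library. Tables and figures used pandas 2.3.3 and matplotlib 3.10.9.

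The rule named the 15 highest and 15 lowest called genes with a mean log2 CPM of at least 4 and no overlap, up to 4 genes of smallest p per list, and 12 genes always; other members are named from the lists to describe them. The comparison and the gene lists were chosen with earlier results of these data known. Windows around start sites came from RefSeq, GRCm38.p6. A gene set test, correlation between comparisons or RNA result is not part of the report. Some genes that the rule selects may not be reported here. Depth per library, 7692625 to 14150068 reads, limits low genes: the 95% interval of genes not called reached a median of 0.291 on the log2 scale to either side.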

Additional observations from a re-analysis of the deposited data

How the results depend on the processing

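The scaling had the widest effect: with library totals in place of TMM, 4979 genes were higher and 1830 lower (73.1% higher, against 47.9%), and the median of the ribosomal protein genes was -1.53. Of the 5989 calls, 4700 were kept in the same direction. Under that scaling Cnp turned to 0.0628, Eif4e to 0.0282, Larp1 to 0.0559 and Acta2 to 0.18 (adjusted p = 0.0085), and Acta2 ran from -0.0674 to 0.0117 with each library left out, turning without rapamycin replicate 3. With the other alternatives 2530 to 2949 genes were higher and 2846 to 3204 lower. Leaving out each library in turn gave 2530 to 2913 higher and 2846 to 3172 lower, and ribosomal protein medians from -1.80 to -1.75. The share of ribosomal protein reads with Rapalink-1 was 2.63%, or 2.66% outside mitochondrial reads. A replicate block gave 2902 higher and 3174 lower, with 5966 of the calls kept. Deviations of same-numbered Rapalink-1 and rapamycin libraries correlated at 0.02, 0.14 and 0.06 over 6781 genes, and those of differently numbered libraries at -0.11 to 0.05. These values do not settle whether the numbers pair the samples, and the main fit did not use the numbers.

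The 180 named genes and the list medians were followed under the alternatives, and 4117 values stayed the same. For a gene this means direction and side of the threshold, for a list median a shift smaller than the spread. In 53 cases a list median moved further, and gene values lost a call in 25, gained one in 4 and turned in 5. Most named genes were picked for extreme values or small p, so the low count of lost calls follows partly from that choice. Over all genes, 5230 to 5401 of the 5989 calls were kept when 1 Rapalink-1 or rapamycin library was left out. The meaning of the library tag and the source of the spread in mitochondrial reads were not tested.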

Other observations

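Over all genes 25.4% were higher and 27.6% lower with Rapalink-1 than with rapamycin. Under library totals 4979 of 11281 genes were higher and 1830 lower, with a median of 0.23. Of 20 genes of glycolysis and the pentose phosphate pathway 14 were lower and 3 higher, with a median of -0.24, or -0.02 with 7 lower and 4 higher under library totals. Aldoa, the fructose-bisphosphate aldolase, had 364, 364 and 345 CPM with Rapalink-1 and 644, 718 and 694 with rapamycin (-0.94 ± 0.052), and Tkt, transketolase, 414, 427 and 417 CPM with Rapalink-1 and 801, 799 and 761.6 with rapamycin (-0.91 ± 0.050). Of 33 proteasome genes 25 were lower and 2 higher, with a median of -0.26, or -0.04 with 14 lower and 6 higher under library totals, and the ubiquitin receptor Psmd4 was at -1.04. Of 20 aminoacyl-tRNA synthetases 8 were lower and 4 higher, with a median of -0.05, or 0.17 with 4 lower and 11 higher under library totals, and Qars was at -0.95. Of 22 genes of nucleotide synthesis 11 were lower and 3 higher, with a median of -0.14, or 0.08 with 6 lower and 9 higher under library totals. Impdh2, of guanine nucleotide synthesis, had 326, 309 and 317 CPM with Rapalink-1 and 554, 536 and 525 with rapamycin (-0.76 ± 0.050), and Rrm2 of ribonucleotide reductase was at -0.53. Of 12 HIF targets 6 were lower and 2 higher, with a median of -0.23, or -0.01 with 5 lower and 4 higher under library totals.

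Other groups were mixed, beside 25.4% higher and 27.6% lower over all genes. The counts of the lysosome and clock lists lie near those shares. Of 39 lysosome and autophagy genes 9 were higher and 13 lower, with a median of -0.10, or 0.12 with 17 higher and 6 lower under library totals. The membrane protein Lamp1 had 208, 216 and 208 CPM with Rapalink-1 and 413, 403 and 395 with rapamycin (-0.94 ± 0.052), and Ulk2, an autophagy kinase, was at 0.92. Of 15 p53 targets and BCL2 family genes 6 were higher and 6 lower, with a median of -0.17. Under library totals 6 were higher and 4 lower, with a median of 0.06. Bbc3, which encodes the death effector PUMA, was at 1.33, and the p53 ligase Mdm2 at 0.55. Of 13 clock genes 4 were higher and 3 lower, with a median of -0.08, or 0.14 with 4 higher and 1 lower under library totals. The repressor genes Bhlhe40 (1.78 ± 0.15) and Nr1d2 (1.06 ± 0.071) led, and Nr1d2 had 96, 105 and 102 CPM with Rapalink-1 and 49.4, 47.9 and 47.7 with rapamycin and 24.8, 21.9 and 25 with DMSO. Of 24 histone genes 4 were higher and 7 lower, with a median of -0.16, or 0.06 with 10 higher and 4 lower under library totals. The 4 higher were the linker histones Hist1h1a, Hist1h1b, Hist1h1c and Hist1h1d, at 0.29, 0.67, 0.32 and 0.45, while H2afx was at -1.10 and Hist2h3b, whose reads are shared with its copies, at -1.45. Of 25 SR and hnRNP splicing factors 8 were higher and 4 lower, with a median of 0.04, or 19 higher and 3 lower at 0.26 under library totals.

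The neuron marker Stmn2, a microtubule regulator, had 113, 107 and 116 CPM with Rapalink-1 and 55.3, 51.2 and 50.9 with rapamycin and 89.3, 86.1 and 86.5 with DMSO (1.1 ± 0.066), while Tubb3 was at -0.52. The beta-globin gene Hbb-bs rests on 6 to 35 reads per library, at 1.61, 2.19 and 3.79 CPM with Rapalink-1 and 0.809, 0.544 and 0.868 with rapamycin (1.72 ± 0.43), and its counts are nearly those of Hbb-bt, whose call was lost without Rapalink-1 replicate 3 (1.15, adjusted p = 0.054).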
